A study of Mus musculus with 12 samples.

Results

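A set of 10 long noncoding RNA genes with known links to macrophage activation, or with well-studied nuclear, growth-related or imprinted functions, were followed in mouse bone marrow-derived macrophages (BMDMs). They were chosen by name, with earlier results of these data known: Mir155hg, Ptgs2os2, Neat1, Malat1, Gas5, Dleu2, Snhg12, Snhg15, Kcnq1ot1 and H19. All 10 of 10 were present among the 43626 genes of the count files, and all 10 passed the filter on low counts with which 14308 genes were tested. The 12 RNA-Seq libraries came from 4 conditions with 3 libraries each: PBS alone (quiescent cells), 3′-sialyllactose (3′SL, a sialylated human milk oligosaccharide that the labels call HMO), lipopolysaccharide (LPS, a bacterial ligand of the receptor TLR4), and LPS together with 3′SL. Per the study's description the agents were given for 6 hours, LPS at 10 ng/mL and 3′SL at 100 μg/mL, whereas the treatment field of the labels describes injected mice. No deletion or transgene is named for these cells, and strain, sex and age of the donor mice are not given in the labels. Whether the 3 libraries of a condition came from separate mice or cultures is not stated in the labels, so the p-values measure only the spread between these libraries, which may be technical.

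Long noncoding RNAs mostly act as RNA rather than through a protein. Mir155hg is the primary transcript from which miR-155 is cut, a microRNA that TLR signalling induces through NF-κB and AP-1 and that represses brakes of the response such as Socs1 and Inpp5d. Ptgs2os2, also known as lincRNA-Cox2, lies next to the cyclooxygenase-2 gene Ptgs2 and is known to modulate immune gene expression in macrophages. Neat1 builds paraspeckles and Malat1 resides in nuclear speckles. Gas5, Snhg12 and Snhg15 carry small nucleolar RNAs in their introns, and the spliced RNA of such hosts is often degraded once it is translated. Dleu2 carries miR-15a and miR-16, which restrain the cell cycle. Kcnq1ot1 silences neighbouring genes of its imprinted domain in cis, and H19 is an imprinted RNA of growing and mesenchymal tissues that carries miR-675.

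The mature microRNAs of the 3 host genes are shown because they are the functional products that a change of Mir155hg, Dleu2 or H19 could bear on. RefSeq sequences (GRCm38.p6) are given 5′ to 3′, with the seed (bases 2 to 8, which pair with the target) in capitals. The genes lie on chromosome 16 plus strand (miR-155, 84714143 to 84714202), chromosome 14 minus strand (miR-15a and miR-16, 61631894 to 61632096) and chromosome 7 minus strand (miR-675, 142577078 to 142577133).
mmu-miR-155-5p: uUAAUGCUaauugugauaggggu
mmu-miR-155-3p: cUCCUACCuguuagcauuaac
mmu-miR-15a-5p: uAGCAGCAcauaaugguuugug
mmu-miR-16-5p: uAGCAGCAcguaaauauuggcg
mmu-miR-675-5p: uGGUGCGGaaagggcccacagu
The seeds of miR-15a-5p and miR-16-5p are identical, and the other 3 seeds differ from it and from each other. Poly(A)-selected libraries do not capture such small RNAs. Of 18 annotated microRNA and small nucleolar RNA genes inside the members, 2 had any read, Snora16a within Snhg12 with 63 reads and Mir15a within Dleu2 with 6 reads over the 12 libraries. Most of these genes share exon bases with their host (Mir155 65 and Snora9 133 bases), and reads ambiguous between genes were left out. Such low counts therefore cannot show whether the small RNAs were present. The values below are reads counted on the host genes.

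The libraries held 20411741 to 26851890 reads on genes. Counts were expressed as CPM (reads of a gene per 1000000 reads) of TMM-scaled library sizes, where TMM is edgeR's scaling that assumes most genes keep their share of the RNA. Macrophage markers (7 of 7 found) summed to 17417 to 27615 CPM in every library. Stromal fibroblast markers (7 of 7 found) followed the running number of the libraries: they summed to 643 to 741 CPM in libraries 1 to 4, 28.6 to 40.5 CPM in libraries 5 to 8 and 69.7 to 110 CPM in libraries 9 to 12. Each of these runs of 4 holds 1 library of every condition and is called a library set here. Residuals from the condition means correlated within sets (mean r = 0.57 across genes). Between sets the mean r was -0.34, a sign that subtracting the mean of 3 libraries gives by itself. By condition, the stromal sums overlapped (28.6 to 643 CPM with PBS, 30.7 to 699 with 3′SL, 40.5 to 736 with LPS and 33.3 to 741 with both). Neutrophil and precursor markers (6 of 6 found) summed to 77.0 to 313 CPM with PBS, 82.0 to 173 with 3′SL, 120 to 552 with LPS and 116 to 533 with both, B cell markers to at most 2.75 CPM, T cell markers to at most 0.146, erythroid markers to at most 0.245, mast cell and basophil markers to at most 3.06 and endothelial markers to at most 25.8 (at most 10.5 without LPS). The part of these cells in the LPS differences was not tested. In bulk RNA, fewer cells of a type and less RNA per cell cannot be told apart.

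Per kilobase of annotated exon, Malat1 and Neat1 were the most abundant members of quiescent cells (45.8 ± 10.6 and 27.1 ± 6.09 CPM per kb, SD, n = 3). Their mean CPM over all 12 libraries, with and without LPS, ranked the second and the first among the 743 long noncoding genes tested. Gas5 followed at 13.2 ± 3.41 and Snhg15 at 6.68 ± 0.536 CPM per kb. Snhg12 stood at 2.71 ± 0.265 and Dleu2 at 1.37 ± 0.171 CPM per kb. H19, Ptgs2os2, Mir155hg and Kcnq1ot1 were all below 0.25 CPM per kb on average (0.217 ± 0.258, 0.0986 ± 0.00194, 0.0738 ± 0.0436 and 0.0405 ± 0.00482), and the spread of H19 covered the other 3. With LPS the order changed: Mir155hg, at 35.1 ± 5.90 CPM per kb, stood between Malat1 (65.8 ± 28.6) and Neat1 (16.3 ± 8.68), and its spread met that of Malat1 but not that of Neat1. The length used for Neat1 was that of all its annotated exons (20.8 kb), which includes its long form. Poly(A) selection favours its short form, so the values of Neat1 per kb may be too low. Its place in either order is therefore not settled. Ptgs2os2 reached 2.60 ± 0.219 CPM per kb, which is within the spread of Dleu2 (2.21 ± 0.773) and below that of Snhg15 (3.30 ± 0.466) in the same cells.

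**Figure D1:**
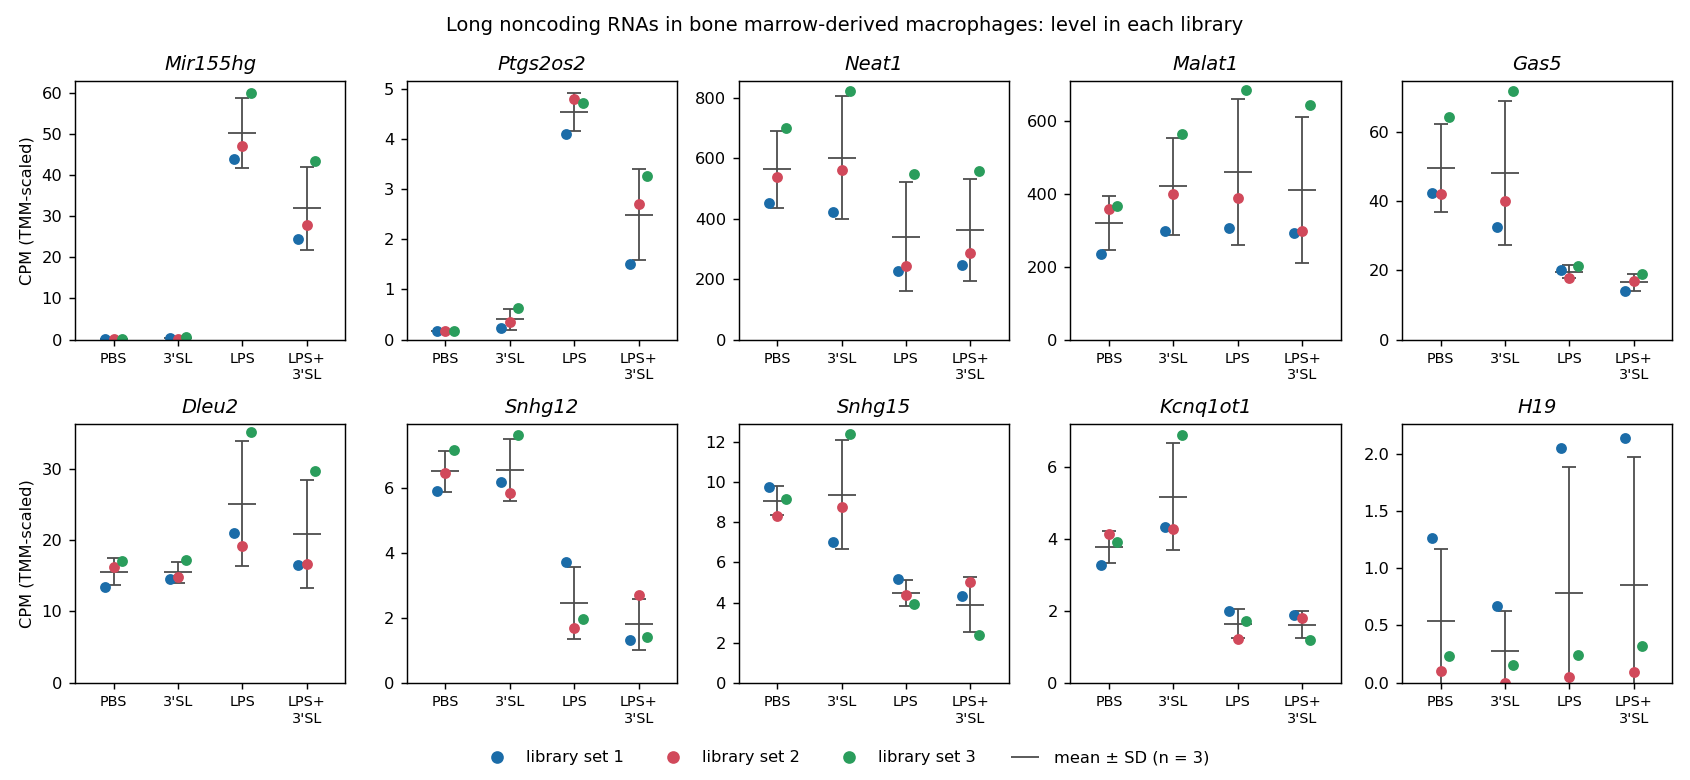
Level of each long noncoding RNA in every library, as TMM-scaled CPM on linear axes that start at 0 and differ between panels, with 1 point per library coloured by library set and grey lines for mean ± SD of 3 libraries. Mir155hg and Ptgs2os2 stand high in the 6 libraries with LPS, Gas5, Snhg12, Snhg15 and Kcnq1ot1 stand low in them, and H19 stands high in library set 1 whatever the condition.

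The first comparison asked how the activating stimulus alone moves these RNAs (LPS against PBS), and a second pair of conditions that shares no library with it asked the same in the presence of 3′SL (LPS with 3′SL against 3′SL). Mir155hg and Ptgs2os2 rose in both, and Gas5, Snhg12, Snhg15 and Kcnq1ot1 fell in both. Neat1, Malat1, Dleu2 and H19 were not called in either. To be called, a gene had to change at least 1.5-fold with a Benjamini-Hochberg adjusted p below 0.05 over all 14308 genes (quasi-likelihood test of edgeR). In LPS against PBS, 2 of 10 members were called higher and 4 lower, where 18.3% of all genes were called higher and 20.2% lower. In the presence of 3′SL the counts were again 2 and 4, against 14.3% and 14.8% of all genes. The members, and the gene lists below, were chosen with earlier results known, so counts beside such shares are a description only. With the library set as a block in the fit, 8 of 10 members were called in each comparison, Neat1 and Dleu2 being added in the first and Neat1 and H19 in the second. That fit called 20.5% of all genes higher and 24% lower with LPS against PBS, and 16.4% and 19.4% in the presence of 3′SL. DESeq2 called 7 members where it called 39.6% of genes, and 6 members where it called 30.9%. The libraries of 7 members did not overlap between LPS and PBS, and those of 6 did not in the presence of 3′SL, as held for 58.4% and 46.6% of all genes.

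Scaling matters to the reading of these directions. When libraries were scaled by total counts alone, the log2 fold change of the median gene moved from -0.06 to -0.71 with LPS against PBS and from -0.07 to -0.54 in the presence of 3′SL, so that shift was -0.65 and -0.47. The share of calls that were higher fell from 47.5% to 18.7% and from 49.2% to 21.8%. The 6 called members kept direction and call under total counts, and Neat1 was then called lower in both comparisons. Below, fold changes are on the TMM scale, relative to a median gene near 0.

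**Figure D2:**
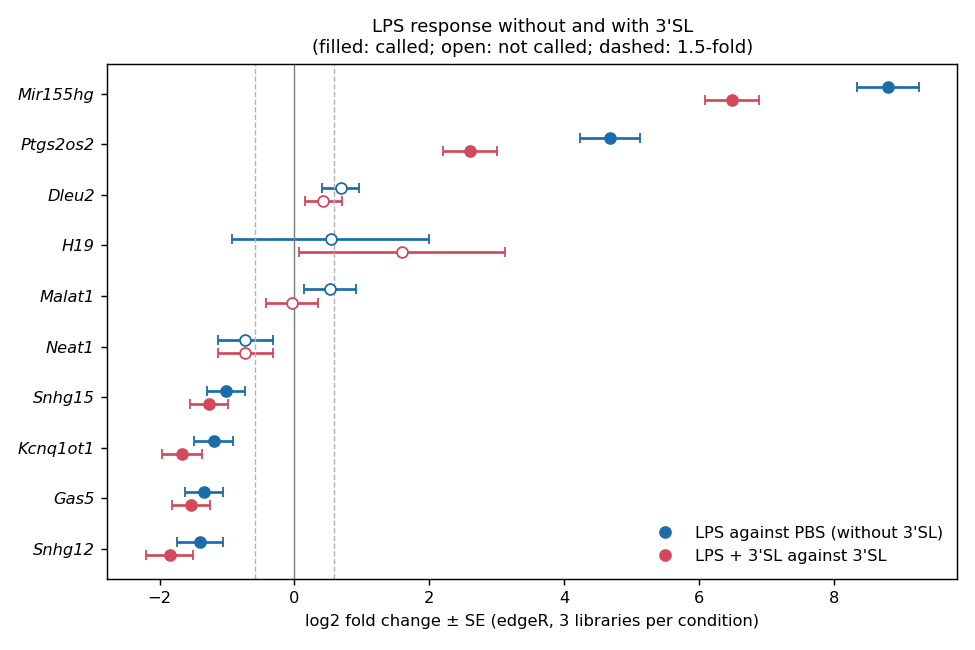
Log2 fold change (TMM scale) of each long noncoding RNA with LPS against PBS (blue) and with LPS and 3′SL against 3′SL (red), with bars of 1 SE from edgeR (3 libraries per condition), filled points called, open points not called and dashed lines at 1.5-fold. Mir155hg and Ptgs2os2 lie far to the right in both comparisons, and 4 called RNAs and Neat1 (open) lie to the left in both. Dleu2, Malat1 and H19 (open) change sign with total-count scaling in at least 1 of the comparisons.

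Mir155hg (ENSMUSG00000097418.3, chr16:84703167-84715245 plus strand, GRCm38, annotated as a lincRNA with 2 exons) was close to undetected in quiescent cells. The PBS libraries held 5, 4 and 1 reads (library sets 1 to 3 in this order throughout), and those with 3′SL 8, 5 and 14 reads. With LPS there were 901, 970 and 976 reads, and with LPS and 3′SL 503, 608 and 810. In CPM, PBS gave 0.143, 0.140 and 0.0337, 3′SL 0.298, 0.199 and 0.556, LPS 44.0, 47.0 and 59.9, and both agents 24.4, 27.9 and 43.4. All 6 libraries with LPS were far above all 6 without it. The log2 fold change was 8.81 ± 0.46 (SE, edgeR, n = 3 per condition, adjusted p = 4.47e-07), a fitted 447-fold difference that rests on 10 reads in the 3 PBS libraries. Among the 743 long noncoding genes tested it was the second largest rise. In the presence of 3′SL it was 6.49 ± 0.40 (adjusted p = 2.09e-06), or 89.8-fold. Within the library sets the first change was 7.89, 8.01 and 9.64 on the log2 scale.

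The promoter of Mir155hg is shown because the rise was so large. RefSeq (GRCm38.p6) places a start at 84713023, inside the annotated span, and the window from 250 bases before to 50 bases after it is chr16:84712773-84713072 on the plus strand, with a match to the letters GAAANNGAA in capitals (the core of an interferon-stimulated response element, 238 bases before the start).
Mir155hg promoter: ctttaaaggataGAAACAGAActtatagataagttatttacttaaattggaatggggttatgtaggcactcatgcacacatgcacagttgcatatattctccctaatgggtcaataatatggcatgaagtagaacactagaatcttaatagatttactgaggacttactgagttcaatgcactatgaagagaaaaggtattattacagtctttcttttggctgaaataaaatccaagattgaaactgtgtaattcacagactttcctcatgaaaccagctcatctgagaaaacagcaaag
A set of 6 motifs was searched on both strands: AP-1 (TGANTCA), CRE (TGACGTCA), the ISRE core (GAAANNGAA), C/EBP (TTGCGCAA), the TATA box (TATAAA) and the NF-κB site (by its name alone). Only the ISRE core was found in this window, and 8.56% of the 32851 RefSeq promoters of the same length hold it. For the others the shares were 7.81% (AP-1), 1.79% (CRE), 0.183% (C/EBP), 13.6% (TATA) and 4.51% (NF-κB). A match is a description of letters and no evidence of binding. The annotated 5′ end of Mir155hg, at 84703167, lies upstream of the window shown, and the bases around that end were not searched.

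Ptgs2os2 (ENSMUSG00000097754.1, chr1:150159043-150164948 minus strand, lincRNA with 2 exons) rose with LPS as well, from a similarly low start. Its reads were 6, 5 and 5 with PBS and 6, 9 and 16 with 3′SL. With LPS they were 84, 99 and 77, and with both agents 31, 59 and 61. As CPM the LPS libraries held 4.10, 4.79 and 4.72, those with both agents 1.5, 2.71 and 3.27, the PBS libraries 0.172, 0.175 and 0.169 and the 3′SL libraries 0.223, 0.358 and 0.636. The libraries with and without LPS did not overlap. Its log2 fold change was 4.68 ± 0.44 (edgeR adjusted p = 1.25e-05; 25.6-fold) and, in the presence of 3′SL, 2.61 ± 0.40 (edgeR adjusted p = 5.21e-04; 6.10-fold).

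The promoter window of Ptgs2os2 (chr1:150164899-150165198, minus strand, start at 150164948) held 1 ISRE core, on the opposite strand and 72 bases before the start, and none of the other 5 motifs.
Ptgs2os2 promoter: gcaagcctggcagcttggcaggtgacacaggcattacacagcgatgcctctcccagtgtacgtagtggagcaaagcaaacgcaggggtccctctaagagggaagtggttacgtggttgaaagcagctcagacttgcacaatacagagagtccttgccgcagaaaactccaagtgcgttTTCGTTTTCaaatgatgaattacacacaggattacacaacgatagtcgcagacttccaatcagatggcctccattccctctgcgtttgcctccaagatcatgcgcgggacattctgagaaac
The nearest protein-coding gene on one side is Ptgs2, 50.8 kb away on the other strand, which encodes the inducible cyclooxygenase that makes prostaglandin precursors. Ptgs2 stood at 6.31, 1.75 and 3.07 CPM with PBS, 10.0, 3.70 and 26.5 with 3′SL, 403, 538 and 628 with LPS and 92.8, 124 and 249 with both. Its log2 fold change with LPS was 7.13 ± 0.82 (edgeR adjusted p = 4.67e-05) and in the presence of 3′SL 3.53 ± 0.69 (edgeR adjusted p = 0.00223). The neighbour of Mir155hg at 2.33 kb, Mrpl39, which encodes a mitochondrial ribosomal protein, rose too, by 1.31 ± 0.16 (edgeR adjusted p = 8.37e-05) and 1.43 ± 0.17 (adjusted p = 7.60e-05) on the log2 scale.

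The 3 small nucleolar RNA hosts among the members fell. Gas5 (ENSMUSG00000053332.9, chr1:161034422-161038539 plus strand, processed transcript), whose RNA is known to build up in growth-arrested cells, held 42.6, 42.1 and 64.5 CPM with PBS and 32.5, 40.2 and 71.9 with 3′SL. With LPS it held 20.0, 17.7 and 21.2 CPM and with both agents 14, 16.8 and 18.9. Every library with LPS lay below every library without it. The log2 fold change was -1.34 ± 0.28 (edgeR adjusted p = 0.00243; 2.53-fold lower) and -1.54 ± 0.28 in the presence of 3′SL (edgeR adjusted p = 0.00147; 2.91-fold lower). Zbtb37, a zinc finger gene that overlaps it on the other strand without sharing exon bases, was not called (0.26 ± 0.18); that sign turned with total counts (-0.41).

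Snhg12 (ENSMUSG00000086290.4, chr4:132308623-132311024 plus strand, lincRNA) held 5.91, 6.45 and 7.18 CPM with PBS and 6.17, 5.84 and 7.63 with 3′SL, and 3.71, 1.69 and 1.96 with LPS and 1.31, 2.71 and 1.39 with both. The groups with and without LPS did not overlap. Its log2 fold change was -1.40 ± 0.34 (edgeR adjusted p = 0.00630) and -1.85 ± 0.35 (edgeR adjusted p = 0.00181). Without library set 2 or library set 3 the first adjusted p was 0.0574 or 0.0532, at log2 fold changes of -1.20 and -1.18. Trnau1ap, 0.739 kb away, which encodes a selenocysteine tRNA-associated protein, was not called at 0.04 ± 0.18 with LPS against PBS; that sign turned with total counts.

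Snhg15 (ENSMUSG00000085156.3, chr11:6525591-6528760 minus strand, processed transcript) held 9.76, 8.31 and 9.17 CPM with PBS, 7.03, 8.75 and 12.4 with 3′SL, 5.17, 4.36 and 3.93 with LPS and 4.32, 5.01 and 2.36 with both. Again no library with LPS reached a library without it. The log2 fold change was -1.02 ± 0.28 (edgeR adjusted p = 0.0124), and -1.27 ± 0.28 in the presence of 3′SL (edgeR adjusted p = 0.00515). Its adjusted p without library set 1 or 2 was 0.0734 and 0.104 in the first comparison, and 0.0511 without set 2 in the second, with log2 fold changes of -1.07, -1.05 and -1.54. Its neighbour Myo1g, a myosin of haematopoietic cells, rose by 0.65 ± 0.10 (edgeR adjusted p = 3.75e-04), a value that fell to 9.2e-05 with total counts.

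The promoters of Gas5 and Snhg15 are shown because both held the full CRE palindrome (capitals), which 1.79% of RefSeq promoters hold, at 46 and 88 bases before the start. The windows are chr1:161034916-161035215 on the plus strand, for the second of 2 RefSeq starts of Gas5 (161035166), and chr11:6528711-6529010 on the minus strand (start at 6528760).
Gas5 promoter: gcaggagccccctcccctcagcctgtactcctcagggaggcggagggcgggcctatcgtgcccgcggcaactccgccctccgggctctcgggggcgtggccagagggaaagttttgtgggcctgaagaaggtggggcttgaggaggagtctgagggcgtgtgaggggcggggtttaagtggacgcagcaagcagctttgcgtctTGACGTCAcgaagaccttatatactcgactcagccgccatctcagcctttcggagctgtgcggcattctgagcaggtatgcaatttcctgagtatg
Snhg15 promoter: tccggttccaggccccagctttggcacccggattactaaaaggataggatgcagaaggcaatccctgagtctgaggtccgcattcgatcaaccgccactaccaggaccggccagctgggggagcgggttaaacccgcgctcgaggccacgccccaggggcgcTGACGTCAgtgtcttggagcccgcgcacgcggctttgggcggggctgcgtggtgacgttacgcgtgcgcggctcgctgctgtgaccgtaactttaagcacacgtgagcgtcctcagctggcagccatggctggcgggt
Neither window held any of the other 5 motifs, nor did the first Gas5 window hold any of the 6. The Snhg12 window held none of the 6 motifs, and its first 50 transcribed bases are given with runs of at least 5 pyrimidines in capitals.
Snhg12 first bases: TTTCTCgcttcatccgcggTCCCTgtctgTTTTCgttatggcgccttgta
A run of 9 pyrimidines touched the 10 bases on either side of the Snhg12 start, and 6 at the Gas5 start used above, where 9.55% and 29.2% of promoters had a run at least that long. At the Snhg15 start the longest was 4. Members that host no small nucleolar RNA had such runs too, 13 at the Dleu2 start and 8 at that of Ptgs2os2. Those at the starts of Mir155hg, Malat1 and Kcnq1ot1 were 3, 4 and 2. Of the remaining RefSeq windows, that of Dleu2 held a TATA box inside the transcribed bases, and those of Malat1 and Kcnq1ot1 held none of the 6 motifs.

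Of 18 other small nucleolar RNA host genes listed, 11 were found by symbol and 9 tested, 8 of them with a log2 fold change below 0 with LPS. With LPS against PBS, 1 was called higher and 5 lower of these 9 (all genes: 18.3% and 20.2%), with a median log2 fold change of -1.48, where all genes had a median of -0.06. Snhg5 fell by 1.68 ± 0.19, Snhg17 by 1.55 ± 0.28, Epb41l4aos by 1.53 ± 0.44, Snhg20 by 1.48 ± 0.22 and Snhg6 by 1.01 ± 0.26 (edgeR adjusted p = 4.93e-05, 8.94e-04, 0.0148, 2.59e-04 and 0.00902). Zfas1 rose by 1.06 ± 0.34 (edgeR adjusted p = 0.0249), a call that total counts did not make (0.39). In the presence of 3′SL, 1 was called higher (Zfas1 again, 1.10 ± 0.34) and 4 lower (Snhg20, Snhg17, Snhg5 and Snhg6, from -1.78 to -0.85; all genes: 14.3% and 14.8%), with a median of -0.85. Epb41l4aos was then not called (-1.19, edgeR adjusted p = 0.0536), but DESeq2 and the block called it (adjusted p = 0.0459 and 0.0136).

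Kcnq1ot1 (ENSMUSG00000101609.1, chr7:143203458-143296549 minus strand, 1 exon of 93.1 kb, antisense) fell with LPS. Its reads were few for its length: 114, 118 and 116 with PBS and 117, 108 and 174 with 3′SL, against 41, 25 and 28 with LPS and 39, 39 and 22 with both. In CPM the values were 3.27, 4.14 and 3.91 with PBS, 4.35, 4.29 and 6.91 with 3′SL, 2.00, 1.21 and 1.72 with LPS and 1.89, 1.79 and 1.18 with both. No library with LPS overlapped those without. The log2 fold changes were -1.20 ± 0.29 (edgeR adjusted p = 0.00618) and -1.67 ± 0.29 (edgeR adjusted p = 0.00117). Without library set 2 the first was -0.95 with an adjusted p of 0.130.

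Kcnq1 itself, the potassium channel gene that Kcnq1ot1 runs through on the other strand, fell by 1.5 ± 0.48 (edgeR adjusted p = 0.0251) and 1.81 ± 0.49 (edgeR adjusted p = 0.0138). The 2 genes share 121 exon bases, 0.130% of Kcnq1ot1, and the strand setting of the counting is not given in the sources used here. If strand was ignored, unspliced reads of Kcnq1 from anywhere in the 93.1 kb exon could also count as Kcnq1ot1. Reads of the 2 genes can therefore not be told apart there. The part of such reads in the fall of Kcnq1ot1 was not tested. Across 13 listed genes of the imprinted domain of distal chromosome 7, 8 were tested. With LPS 0 were called higher and 3 lower (Kcnq1, Tspan32 at -1.5 ± 0.42 and Tssc4 at -1.5 ± 0.12), where 20.2% of all genes were called lower, with a median of -0.67. In the presence of 3′SL 3 were called lower (Kcnq1, Tssc4 at -1.37 ± 0.12 and the tetraspanin gene Cd81 at -0.88 ± 0.22; all genes: 14.8%) and the median was -0.50. Tspan32 was then called lower with the block alone (-0.71, edgeR adjusted p = 0.0401). Cdkn1c, a cell cycle inhibitor gene that Kcnq1ot1 is known to silence on the paternal copy, had a log2 fold change of -0.93 ± 0.37 (edgeR adjusted p = 0.0580) and of 0.08 ± 0.36 in the presence of 3′SL, not called in either. The block called the first lower (-0.95, edgeR adjusted p = 0.0303; lower in 3 of 3 sets).

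**Figure D3:**
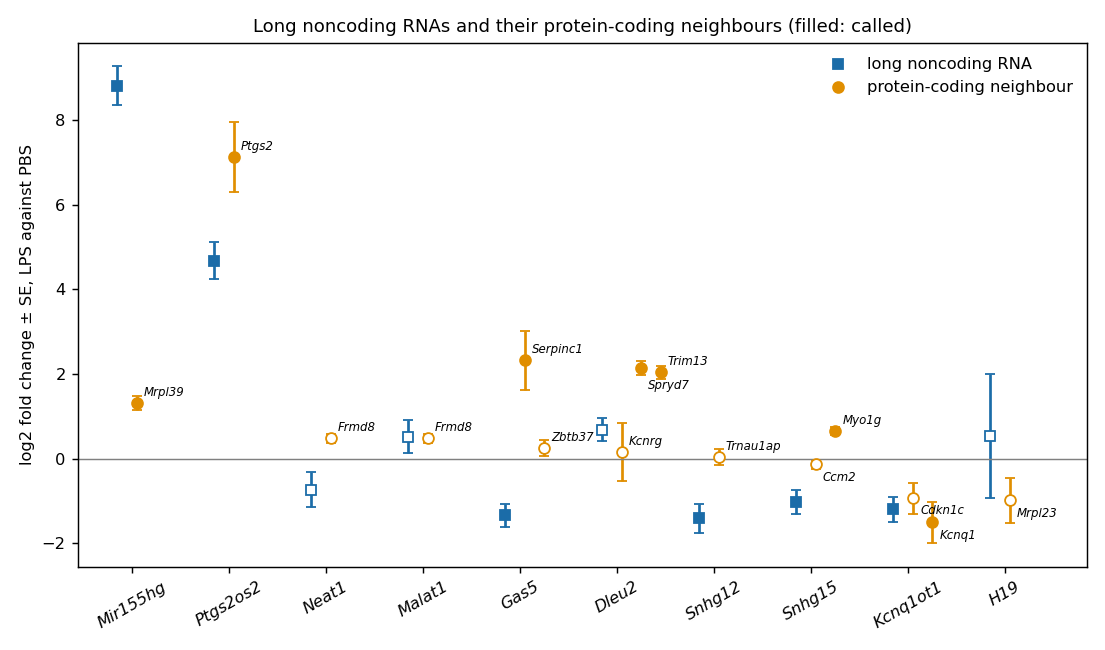
Log2 fold change (TMM scale, bars of 1 SE, edgeR, 3 libraries per condition) with LPS against PBS of each long noncoding RNA (blue squares) and of tested protein-coding neighbours (orange circles), filled where called. Ptgs2 lies high beside Ptgs2os2, Kcnq1 low beside Kcnq1ot1, and Trim13 and Spryd7 lie near 2 above an uncalled Dleu2.

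Neat1 (ENSMUSG00000092274.2, chr19:5824708-5845478 minus strand, lincRNA) and Malat1 (ENSMUSG00000092341.2, chr19:5795690-5802672 minus strand, lincRNA) lie side by side near Frmd8. Poly(A) selection favours the short, polyadenylated form of Neat1 over the long form that scaffolds paraspeckles, so mostly the short form was measured. Neat1 held 451, 537 and 701 CPM with PBS, 422, 560 and 822 with 3′SL, 227, 243 and 548 with LPS and 245, 287 and 556 with both. Library set 3 was the highest in each condition, and the conditions overlapped through it. The log2 fold change was -0.73 ± 0.41 in both comparisons (edgeR adjusted p = 0.170 and 0.195). Within the sets it was -0.99, -1.14 and -0.36 with LPS against PBS and -0.78, -0.96 and -0.56 in the presence of 3′SL, lower in 3 of 3 sets each time. With the set as a block, Neat1 was called lower in both, at -0.83 ± 0.13 (edgeR adjusted p = 2.17e-04) and -0.77 ± 0.13 (edgeR adjusted p = 4.86e-04). Total counts alone gave -1.43 (edgeR adjusted p = 0.00214) and -1.24 (adjusted p = 0.00647).

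Malat1 held 234, 359 and 366 CPM with PBS, 298, 400 and 563 with 3′SL, 305, 389 and 685 with LPS and 291, 299 and 642 with both. All 4 ranges overlapped. Its log2 fold change with LPS was 0.52 ± 0.39 (edgeR adjusted p = 0.299) on the TMM scale and -0.17 with total counts, and in the presence of 3′SL it was -0.03 ± 0.39. With the block the first was 0.45 ± 0.15, with an adjusted p of 0.0247 but under 1.5-fold. The flanking gene Frmd8 had a log2 fold change of 0.48 ± 0.11, under 1.5-fold, and changed sign with total counts (-0.17).

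Among 12 genes for paraspeckle proteins, all tested, 2 were called higher and 1 lower with LPS, where 18.3% and 20.2% of all genes were. Nono, a core paraspeckle protein that binds Neat1, rose by 1.23 ± 0.17 (edgeR adjusted p = 1.51e-04) and Hnrnph3 by 0.70 ± 0.18 (edgeR adjusted p = 0.00854), while Nudt21, a cleavage factor of 3′ end processing, fell by 0.82 ± 0.25 (edgeR adjusted p = 0.0205). The list's median was 0.10, and total counts called neither Nono (0.56) nor Hnrnph3 (0.04) higher. In the presence of 3′SL the same 3 were called in the same directions and Rbm14 fell by 0.64 ± 0.17 (edgeR adjusted p = 0.0145), where 14.3% of all genes were called higher and 14.8% lower.

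Dleu2 (ENSMUSG00000097589.5, chr14:61602839-61682373 minus strand, processed transcript) held 13.4, 16.2 and 17.1 CPM with PBS, 14.5, 14.8 and 17.2 with 3′SL, 20.9, 19.2 and 35.2 with LPS and 16.5, 16.6 and 29.6 with both. The 3 LPS libraries lay above the 3 PBS libraries, while those with both agents overlapped those with 3′SL. Its log2 fold change was 0.69 ± 0.27 (edgeR adjusted p = 0.0593) and 0.43 ± 0.27 (edgeR adjusted p = 0.252), neither called. DESeq2 and the block called the first (0.74 and 0.64, adjusted p = 0.0296 and 0.00391), and total counts with the block turned it to -0.01. Trim13, a ubiquitin ligase gene that overlaps its span on the other strand without sharing exon bases, rose by 2.04 ± 0.16 (edgeR adjusted p = 3.20e-06) and 1.31 ± 0.15 (edgeR adjusted p = 8.54e-05). Spryd7, 46.0 kb away, rose by 2.15 ± 0.16 and 1.88 ± 0.16 (edgeR adjusted p = 2.95e-06 and 1.10e-05).

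H19 (ENSMUSG00000000031.11, chr7:142575529-142578143 minus strand, lincRNA) followed the library set. It had 44, 3 and 7 reads with PBS, 18, 0 and 4 with 3′SL, 42, 1 and 4 with LPS and 44, 2 and 6 with both. The library at 0 allows up to 3 reads, or 0.119 CPM, by counting error alone. Each set 1 library held at least 18 reads and no other library more than 7, and the summed stromal markers were highest in the same 4 libraries (643 to 741 CPM, against 28.6 to 110 in the other 8); their part in the level of H19 was not tested. The log2 fold changes were 0.54 ± 1.46 and 1.59 ± 1.53 (edgeR adjusted p = 0.804 and 0.465). With the block the second was 1.57 ± 0.52 (edgeR adjusted p = 0.0265) and called, on 22 reads with 3′SL and 52 with both agents. Its set 1 values alone were 18 against 44 reads. Mrpl23, 34.8 kb away, was not called with LPS against PBS (-0.98 ± 0.53) and fell by 2.27 ± 0.56 in the presence of 3′SL (edgeR adjusted p = 0.00860). Igf2, on the other side, was not tested for its low counts.

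**Figure D4:**
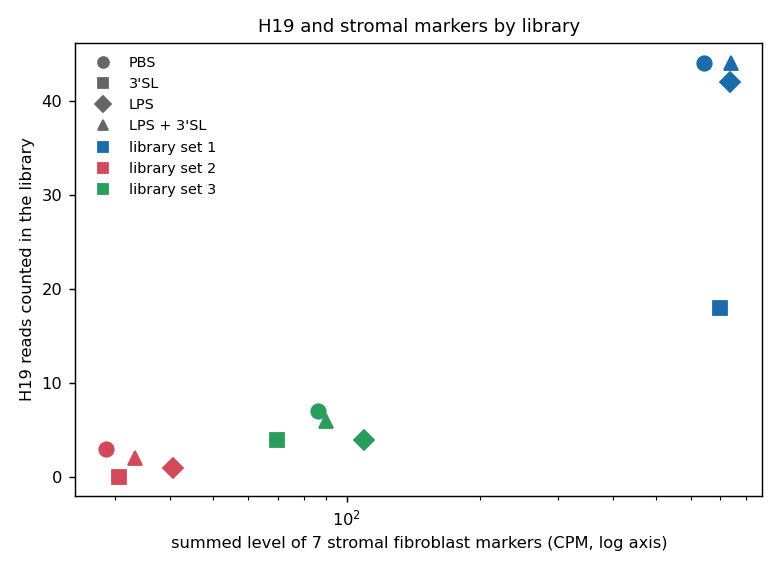
Reads of H19 in each of the 12 libraries (vertical axis, linear) against the summed CPM of 7 stromal fibroblast markers (horizontal axis, log scale), with marker shape for condition and colour for library set. The 4 libraries of set 1 lie to the upper right with 18 to 44 reads, and the other 8 lie to the left with 0 to 7.

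The remaining comparisons asked what 3′SL does without LPS (3′SL against PBS), what it does with LPS (LPS and 3′SL against LPS), and whether these effects differ (their interaction). Mir155hg and Ptgs2os2 moved the most among the members, higher with 3′SL in quiescent cells and lower with 3′SL in LPS-treated cells, but neither was called by edgeR without the block. In all 3, that fit called 0 of 10 members and 0% of all genes. At an unadjusted p under 0.05 the count was 2 members each time, Mir155hg and Ptgs2os2, and 10.1%, 6.95% and 6.09% of all genes had such a p. DESeq2 called 0 members in each, with 0.615%, 0.79% and 0.308% of genes called. With the library set as a block, 0, 1 and 1 members were called, where 1.98% of genes were called higher and 0.86% lower with 3′SL alone, 0.685% and 0.762% with 3′SL and LPS, and 0.266% and 1.29% in the interaction.

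Mir155hg with 3′SL alone had a log2 fold change of 1.66 ± 0.54 (edgeR adjusted p = 0.381) on 27 against 10 reads. In CPM the 3 libraries lay above the 3 with PBS, though 1 library of each condition held 5 reads. With LPS present, the log2 fold change was -0.66 ± 0.29 (edgeR adjusted p = 0.711), and all 3 libraries lay below those with LPS alone. Within the sets the change was 0.87, 0.40 and 2.99 without LPS and -0.85, -0.75 and -0.46 with it. An exact permutation test of 3 against 3 libraries gave p = 0.10 each time, the smallest it can give. The interaction was -2.32 ± 0.62 (edgeR adjusted p = 0.588). With the block, the fall in LPS-treated cells was -0.69 ± 0.15 (edgeR adjusted p = 0.0384) and the interaction -2.32 ± 0.51 (edgeR adjusted p = 0.0478), both called, while the rise without LPS was not (adjusted p = 0.0755).

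Ptgs2os2 showed the same signs. Its log2 fold change was 1.21 ± 0.44 with 3′SL alone (edgeR adjusted p = 0.426; 31 against 16 reads) and -0.86 ± 0.37 with LPS present (edgeR adjusted p = 0.672; 151 against 260 reads). In neither did the libraries overlap in CPM, though without LPS 1 library of each condition held 6 reads. Within the sets the log2 change was 0.31, 0.88 and 1.69 without LPS and -1.42, -0.81 and -0.53 with LPS. The interaction was -2.07 ± 0.57 (edgeR adjusted p = 0.597), and the block called none of the 3 (adjusted p = 0.128, 0.117 and 0.0659). Ptgs2 had log2 fold changes of 1.84 ± 0.67 and -1.75 ± 0.64 (edgeR adjusted p = 0.428 and 0.549), not called. Its interaction was -3.59 ± 0.93 (edgeR adjusted p = 0.579), negative in 3 of 3 sets, and was called by DESeq2 (-3.64, adjusted p = 0.0188) and with the block (-3.47, edgeR adjusted p = 0.0307).

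**Figure D5:**
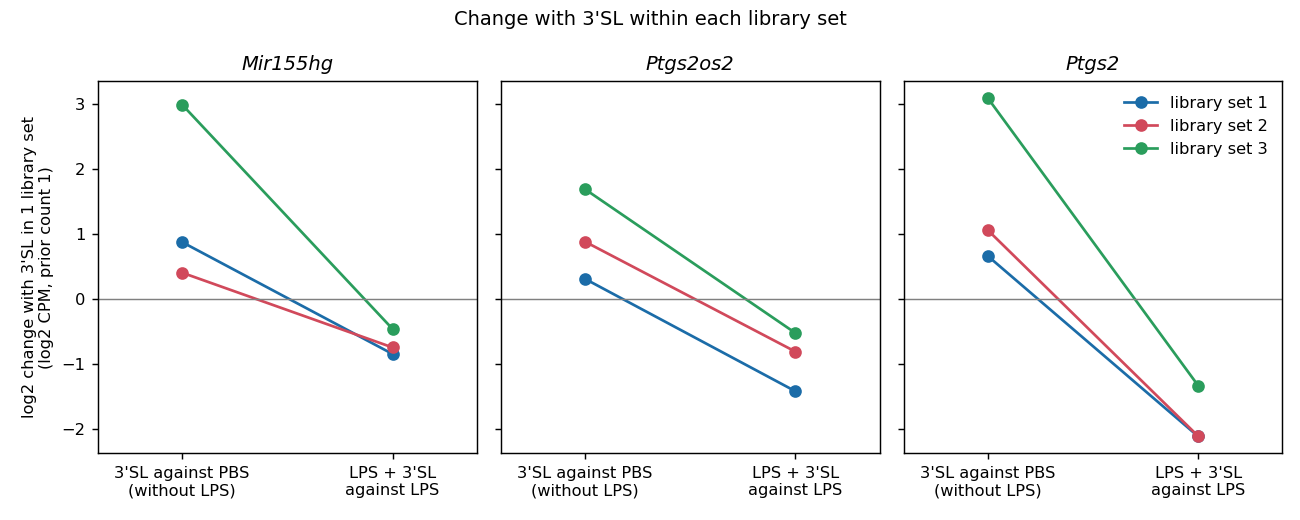
Log2 change with 3′SL within each library set (differences of log2 CPM with a prior count of 1) for Mir155hg, Ptgs2os2 and Ptgs2, without LPS on the left of each panel and with LPS on the right, 1 line per set. All 3 sets lie above 0 without LPS and below 0 with it in each panel. Without the block edgeR called none of these changes, and with it the fall of Mir155hg in LPS-treated cells alone.

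For the other 8 members the log2 fold change with 3′SL ran from -0.95 ± 1.51 (H19) to 0.46 ± 0.28 (Kcnq1ot1) without LPS and from -0.44 ± 0.35 (Snhg12) to 0.11 ± 1.46 (H19) with it. Kcnq1ot1 was the only one of the 8 whose libraries did not overlap, all 3 with 3′SL alone lying above the 3 with PBS (edgeR adjusted p = 0.632). With Mir155hg and Ptgs2os2 that made 3 of 10 members without LPS, and 2 of 10 with LPS, where 17.5% and 12.7% of all genes did not overlap. Trim13 had -0.83 ± 0.15 with LPS present, not called (edgeR adjusted p = 0.152), but DESeq2 (-0.84, adjusted p = 1.54e-04) and the block (-0.84, edgeR adjusted p = 0.00640; lower in 3 of 3 sets) called it.

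Other long noncoding RNAs gave context. Of 743 tested long noncoding genes (5694 in the files), 125 (16.8%) were called higher and 138 (18.6%) lower with LPS, and 95 (12.8%) and 115 (15.5%) in the presence of 3′SL. Of 27 listed RNAs other than the members, 24 were found and 16 tested. With LPS, 2 rose, AW112010 by 7.20 ± 0.50 (edgeR adjusted p = 1.93e-06) and U90926 by 3.87 ± 1.08 (edgeR adjusted p = 0.0168) on the log2 scale. AW112010, an RNA of inflamed myeloid cells, had 134 to 175 reads with PBS and 11731 to 17985 with LPS. U90926 had 7, 1 and 0 reads with PBS against 17, 8 and 43 with LPS. Another 4 fell, namely Jpx, a regulator of X inactivation (-2.79 ± 0.47), Pvt1, the neighbour of Myc (-2.14 ± 0.36), Mir17hg, the host of the miR-17 to miR-92 cluster (-2.13 ± 0.37), and Ftx (-1.59 ± 0.31), with edgeR adjusted p = 6.10e-04, 5.85e-04, 6.98e-04 and 0.00166. The median over the 16 was 0.10. The block called 2 more higher with LPS, named here for that reason, Mir22hg (1.48, edgeR adjusted p = 1.02e-05; DESeq2 adjusted p = 0.0188) and Mir99ahg (0.71, edgeR adjusted p = 0.0126). In the presence of 3′SL, 3 were called higher (AW112010, U90926 and Trp53cor1) and 3 lower (Mir17hg, Jpx and Pvt1), with a median of 0.10. U90926 then had 0 reads in all 3 libraries with 3′SL and 7, 6 and 12 with both agents. For 3′SL, edgeR without the block called none of the 16. With the block it called AW112010 lower with 3′SL on LPS (-1.35, edgeR adjusted p = 0.00148) and in the interaction (-1.51, edgeR adjusted p = 0.0158). Mir22hg was called higher with 3′SL alone (1.15, edgeR adjusted p = 0.00487) and lower in the interaction (-1.09, edgeR adjusted p = 0.0374). The block called no other of the 16 for 3′SL.

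The genes whose log2 CPM ran most alike with each member over the 12 libraries are given as a description; the points share libraries and sets. Mir155hg ran with Plekha4 and Lims1 (r = 0.996 and 0.995) and Ptgs2os2 with F830208F22Rik and Fas (0.992 and 0.992). Neat1 ran with Taz and Ubtf (0.987 and 0.976) and Malat1 with Son and Bptf (0.964 and 0.958). Gas5 ran with Srsf6 and Zbtb48 (0.984 and 0.981), Dleu2 with Akap13 and Ppp4r1 (0.967 and 0.962), Snhg12 with Klhl3 and Larp4 (0.963 and 0.959) and Snhg15 with Ift20 and Slc25a26 (0.976 and 0.971). Kcnq1ot1 ran with Gsdme and Aasdhppt (0.979 and 0.974). H19 ran with S1pr3 and Col6a2 (0.975 and 0.963), the latter a collagen gene of mesenchymal cells.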

How the data were processed

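Poly(A) RNA of BMDMs was sequenced after stranded library preparation (TruSeq Stranded mRNA), 3 libraries for each of 4 conditions. The deposited values are raw read counts per gene, 1 table per library. The submitters' processing notes name FastQC, Trimmomatic, STAR, HTSeq and DESeq2 without versions; the genome build, annotation and strand setting of the counting are not given in the sources used here. The authors' tables held 43626 gene identifiers, of which 42548 matched GENCODE M21 (GRCm38) once version numbers were dropped; names, spans and exon lengths come from it. Reads with no feature, ambiguous reads (650254 to 869895 per library) and alignments that were not unique (8634639 to 11273250) were left out. Reads of near-identical copies are therefore lost, and without a known strand setting reads from overlapping genes on opposite strands cannot be told apart.

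Counts were fitted in R 4.3.3 with edgeR 4.0.16 (filterByExpr with a minimum count of 10, TMM scaling, quasi-likelihood test, 1 mean per condition, all 12 libraries). TMM factors ran from 0.700 to 1.30. Calls needed a 1.5-fold change and an adjusted p below 0.05. The SE is the log2 fold change divided by the square root of F. Within-set changes are differences of log2 CPM with a prior count of 1. Alternatives were DESeq2 1.42.0, other scalings and filters, the library set as a block, and leaving out libraries or sets. The edgeR fit without the block was tested on simulated data with no library set effect and with changes in well-counted genes only. That test does not bear on set effects or on members with few reads. The members and lists were chosen with earlier results of these data known. All 10 members, their neighbours and the list members that were called could be named, and for each member the 2 genes most alike. No 2 libraries of a condition were alike within counting noise (chi-square per gene 15.6 to 115). The bound given for the H19 library at 0 reads covers counting error only, while each SE and SD includes the spread between libraries. The listed RNAs not found by symbol were not analysed here. Promoter entries (RefSeq, GRCm38.p6) matched 8 of 10 members; Neat1 and H19 have none printed. A few neighbouring genes are not reported here.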

Additional observations from a re-analysis of the deposited data

Results flagged for a closer look

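Mir155hg and Ptgs2os2 stood out because, in CPM, every library with 3′SL lay above PBS without LPS, while every library with 3′SL and LPS lay below LPS alone. The difference between these effects was -2.32 ± 0.62 for Mir155hg (log2, SE, edgeR adjusted p = 0.588) and -2.07 ± 0.57 for Ptgs2os2 (edgeR adjusted p = 0.597), so neither passed the threshold over all genes in the fit without the library set block. With the block Mir155hg passed it (-2.32 ± 0.51, edgeR adjusted p = 0.0478) and Ptgs2os2 did not (-2.08 ± 0.51, edgeR adjusted p = 0.0659). It was negative in 3 of 3 library sets for both. The separation of the libraries for which they were flagged fixed that sign in advance, so it is no further support. The quiescent libraries behind the difference held 1 to 16 reads each. Their separation held in CPM but not in reads. Mir155hg had 5 reads with PBS in set 1 and 5 with 3′SL in set 2. Ptgs2os2 had 6 reads in set 1 both with PBS and with 3′SL.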

How the results depend on the processing

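Of 1114 values (log2 fold changes of the members over all comparisons and alternatives), 1010 kept their direction and their side of the threshold, 81 changed sign, 17 passed it newly and 6 no longer passed it. None of the 6 members called with LPS changed sign in either LPS comparison under any alternative run. The number called with LPS against PBS ran from 6 to 7, and in the presence of 3′SL stayed at 6, when any single library was left out. Without library set 2 it was 3 in the first. In 3′SL against PBS the number called was 2 by unadjusted p. With LPS and 3′SL against LPS it was 1 with the library set block, 1 without library set 3 and 2 by unadjusted p. For the interaction it was 1 with the block and 2 by unadjusted p. The remaining alternatives moved no count by over 1.5 times. With at least 10 counts required in every library, Mir155hg, Ptgs2os2 and H19 dropped out and have no value. The labels give no replicate numbers, so the paired analysis used the library set as the block. The cause of each change was not tested.

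Total counts turned the sign of Malat1 and H19 with LPS against PBS (-0.17 and -0.053), Dleu2 in the presence of 3′SL (-0.084), Neat1, Snhg12 and Snhg15 with 3′SL alone (-0.0054, -0.084 and -0.058) and Kcnq1ot1 with 3′SL on LPS (0.095). Together with the block they turned Dleu2, H19 and Malat1 with LPS against PBS (-0.012, -0.31 and -0.20), Dleu2 in the presence of 3′SL (-0.10), Neat1, Snhg12 and Snhg15 with 3′SL alone (-0.022, -0.083 and -0.036) and Kcnq1ot1 with 3′SL on LPS (0.093). DESeq2 gave Dleu2 0.00087 with 3′SL alone and Neat1 -0.0201 in the interaction, and its size factors in edgeR 0.000855 and -0.0200. Keeping all genes with a count gave Snhg12 -0.011 with 3′SL alone, at least 10 counts in every library gave Neat1 -0.0023 in the interaction, and a fit on the conditions compared gave Kcnq1ot1 0.00079 with 3′SL on LPS.

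Without library set 1, Gas5 and Snhg12 with 3′SL alone were 0.072 and -0.017, Kcnq1ot1 and Snhg12 with 3′SL on LPS 0.031 and 0.17, and Neat1 and Snhg12 in the interaction -0.066 and 0.19. Without set 2, Dleu2 with 3′SL alone was 0.052, Malat1 in the presence of 3′SL 0.12 and Neat1 in the interaction -0.062. Without set 3, Neat1, Snhg12 and Snhg15 with 3′SL alone were -0.027, -0.059 and -0.21, Kcnq1ot1 with 3′SL on LPS 0.20 and Snhg15 in the interaction 0.19.

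Leaving out single libraries, the log2 fold changes that turned in at least 1 fit ranged as follows. H19 ran from -1.90 to 2.17 with LPS, -0.44 to 3.34 with LPS in the presence of 3′SL, -2.69 to 0.69 with 3′SL alone, -1.93 to 2.55 with 3′SL on LPS and -0.98 to 3.5 in the interaction. Malat1 ran from -0.51 to 0.25 with LPS in the presence of 3′SL and -0.64 to 0.24 with 3′SL on LPS. With 3′SL alone, Dleu2 ran from -0.12 to 0.068, Gas5 from -0.49 to 0.19, Neat1 from -0.23 to 0.30, Snhg12 from -0.15 to 0.084 and Snhg15 from -0.24 to 0.22. With 3′SL on LPS, Dleu2 ran from -0.60 to 0.061, Kcnq1ot1 from -0.20 to 0.17, Neat1 from -0.35 to 0.63 and Snhg15 from -0.42 to 0.057. In the interaction, Dleu2 ran from -0.59 to 0.067, Gas5 from -0.43 to 0.24, Neat1 from -0.45 to 0.53 and Snhg15 from -0.47 to 0.039.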
